A study of Camellia sinensis with 9 samples.

Results

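Among the reference transcripts of the tea plant, Camellia sinensis, 24 were abundant in both flower and leaf and low in root. They were chosen by their own values. A transcript had to be coded = in the authors' table, which marks an assembled transcript that matches a transcript of the reference annotation, and to be the single such transcript of its locus. It had to reach 10 FPKM (fragments relative to transcript length and to sequencing depth) in all 3 flower and all 3 leaf libraries, and its smallest flower or leaf value had to be at least 10 times its largest root value. Its flower and leaf means had to lie within 5-fold of each other. Of 26178 such reference transcripts, 1670 reached 10 FPKM in all flower and leaf libraries, 40 of these were low in root (2.40%), and 24 also met the 5-fold limit. The table holds 109879 transcripts in 61592 loci. Root against flower and root against leaf are therefore descriptions of the members, with no test.

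RNA was measured in root, flower and leaf of untreated plants, with 3 libraries for each organ and 9 in all. The labels give no cultivar, age or stage, and do not say whether libraries of an organ came from separate plants. The series' design text calls the RNA retinal, which no tissue label does. Titles give root libraries 13, 23 and 33, flower libraries 1, 2 and 45, and leaf libraries 1, 2 and 41. The leaf columns of the table are numbered 1, 23 and 41. No leaf title has the number 23 and no column has the name leaf 2, so column 23 was taken as a leaf library without a number, on its tissue name alone, and is named the unnumbered leaf library here. Values of an organ follow that order, with the unnumbered leaf library between leaf 1 and leaf 41.

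Flowers and leaves both arise from the shoot and are exposed to light and air, while the root grows from its own meristem in the soil. Transcripts shared by aerial organs and scarce in root are known in plants for photosynthesis, for responses to light, and for the waxy cuticle that covers aerial surfaces. In tea, the young leaf is also known for catechins and caffeine, whereas theanine is made largely in the root. Which of these roles the 24 transcripts have is not given by the table, which pairs no identifier with a description. None of their identifiers (0 matches) occurred in the RefSeq gene table of assembly ASM5576180v1. For the same reason, the organ labels could not be set against marker genes. In bulk tissue, fewer cells of a type and less RNA per cell cannot be told apart.

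Libraries of an organ were not equally alike. Over the 55806 transcripts with at least 1 FPKM in at least 3 libraries, Pearson's r of log2(FPKM + 1) was 0.95 between leaf 1 and the unnumbered leaf library, and 0.76 and 0.77 between leaf 41 and these. With the root libraries leaf 41 reached 0.57 to 0.64, where the other leaf libraries reached 0.44 to 0.48. Flower 2 had an r of 0.83 with each of the other flower libraries, which reached 0.93 with each other. These correlations are across transcripts, which are not independent replicates. Depth was read from the steps of low values: in a transcript of 1000 nt, 3 fragments corresponded to 0.168 to 0.214 FPKM in root libraries, 0.167 to 0.213 in flower and 0.116 to 0.130 in leaf. These limits cover counting error only. Summed FPKM was 865021 to 1087874 in root, 913083 to 1250929 in flower and 623826 to 766516 in leaf.

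**Figure D1:**
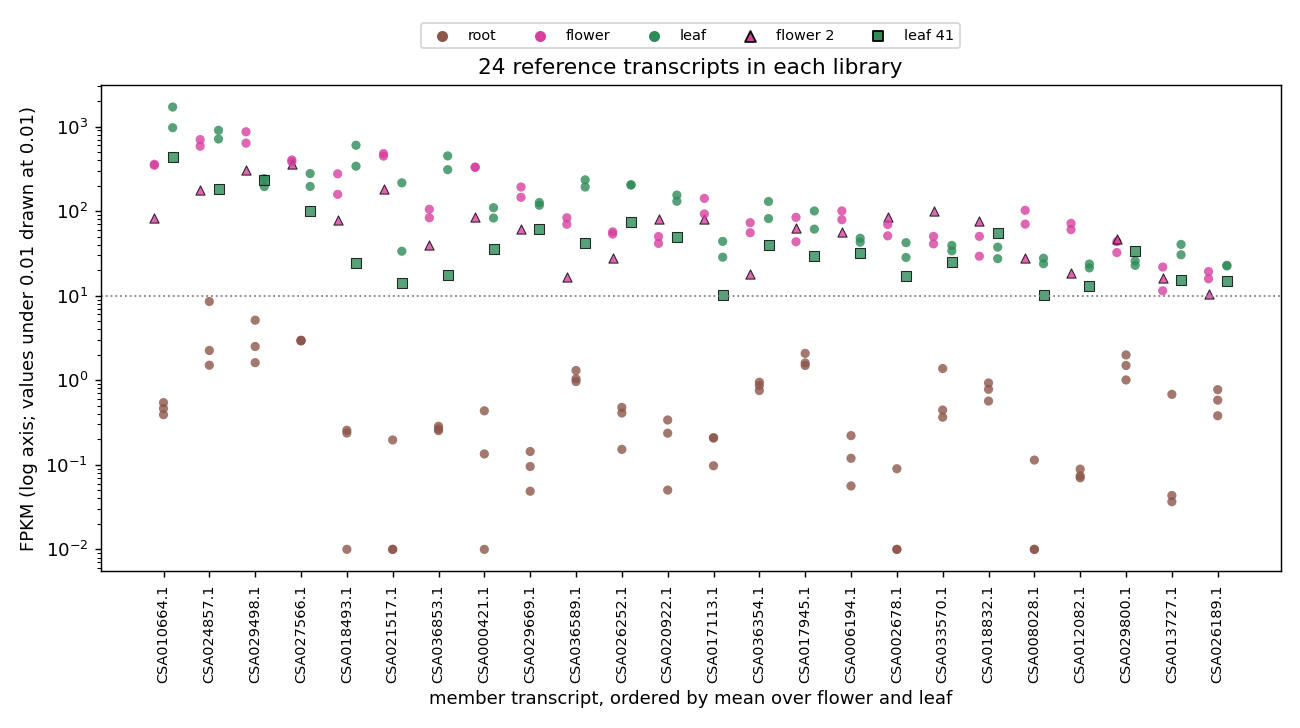
FPKM of the 24 member transcripts in each library on a log axis, ordered by the mean over flower and leaf; each point is 1 library, triangles are flower 2, squares are leaf 41, the dotted line is 10 FPKM, and values under 0.01 FPKM are drawn at 0.01. Root points lie at 8.53 FPKM or lower and flower and leaf points at 10.2 FPKM or higher, and leaf 41 is the lowest leaf point in 21 of 24 transcripts.

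The members covered a wide range of abundance. Their mean over the flower and leaf libraries ran from 17.7 to 649 FPKM with a median of 75.4, and 11 of the 24 exceeded 100 FPKM. Their root mean ran from 0.0299 to 4.10 FPKM with a median of 0.307, and the largest root value was under 1 FPKM in 17 members. The members held 0.342% ± 0.114 of summed FPKM in flower, 0.537% ± 0.278 in leaf and 0.00215% ± 0.000834 in root (SD, n = 3 each). In leaf 41 that share was 0.217%, against 0.688% in leaf 1 and 0.706% in the unnumbered leaf library. In flower 2 it was 0.219%, against 0.363% in flower 1 and 0.444% in flower 45. The 4 most abundant members took 44.1% to 51.3% of the members' sum in flower libraries and 48.3% to 60.8% in leaf libraries.

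CSA010664.1 was the most abundant member (locus MSTRG.34340, positions 42154 to 42597, minus strand). Positions count along a scaffold whose name is not in the table. It stood at 0.544, 0.463 and 0.391 FPKM in root, at 349, 83.0 and 358 in flower, and at 969, 1701 and 436 in leaf. Every leaf value lay above every flower value, and flower 2 and leaf 41 were the lowest of their organs. It spans 444 nt, the shortest of the members, so its FPKM rests on a short effective length.

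CSA024857.1 followed (MSTRG.4896, positions 481717 to 486334, plus strand), at 8.53, 1.51 and 2.25 FPKM in root, 585, 176 and 701 in flower, and 713, 903 and 182 in leaf. Its flower and leaf values overlapped, with flower 2 and leaf 41 close together at the bottom. Root 13 was its highest root library and the highest root value of any member. CSA029498.1 (MSTRG.7660, positions 224426 to 227907, plus strand) stood at 2.51, 1.61 and 5.13 FPKM in root, at 868, 310 and 636 in flower, and at 195, 243 and 235 in leaf. All of its flower values lay above its leaf values, and it was 1 of the 3 members in which leaf 41 was not the lowest leaf library. CSA027566.1 (MSTRG.44607, positions 40912 to 42054, minus strand) had the steadiest flower level of the members, at 403, 360 and 383 FPKM. In leaf it stood at 196, 278 and 100, and in root at 2.95, 2.91 and 2.97.

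The root level of many members was near the limit of detection. In root 13, 8 of the 24 stood at or under the level of 3 fragments at 1000 nt, in root 23 it was 12 and in root 33 it was 6. For 5 members this held in all 3 root libraries, and 4 members were listed at 0 in at least 1 root library. None was listed at 0 in all of them (0 members). The spliced lengths of the transcripts are not given, so this level is a guide and not a count for each transcript. In transcripts shorter than 1000 nt, such as CSA010664.1, the level lies higher, so these counts can leave out short members.

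The widest gap between shoot organs and root was at CSA029669.1 (MSTRG.7951, positions 19101 to 24287, minus strand). It stood at 0.0955, 0.0487 and 0.144 FPKM in root, at 193, 61.7 and 146 in flower, and at 117, 126 and 61.8 in leaf. Its smallest shoot value was 430 times its largest root value, which itself lay under the 3-fragment level, so the ratio is loosely set. CSA002678.1 (MSTRG.46712, positions 48760 to 54127, plus strand) was listed at 0 in root 13 and root 33 and stood at 0.0898 FPKM in root 23. In flower it stood at 51.0, 84.95 and 69.5 FPKM and in leaf at 28.3, 42.3 and 17.1, so flower lay above leaf without overlap. The third widest gap belonged to CSA010664.1, at 153 times. Over the 24 members the ratio of the smallest shoot value to the largest root value had a median of 53.4, and it was at least 50 in 12 members and at least 100 in 6.

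**Figure D2:**
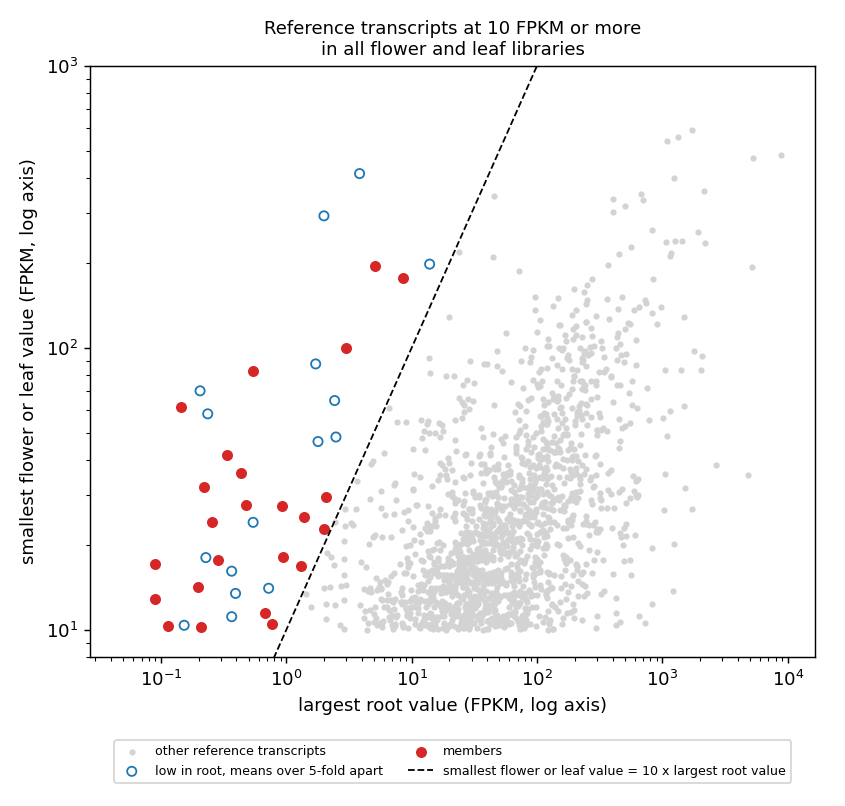
Smallest flower or leaf value against largest root value, both in FPKM on log axes, for the 1670 reference transcripts at 10 FPKM or more in all flower and leaf libraries. The dashed line marks a 10-fold gap; the 24 members (filled) and the 16 transcripts whose flower and leaf means lie over 5-fold apart (open) are the 40 above it.

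The members just inside the 10-fold limit were CSA029800.1, at 22.8 FPKM in its lowest shoot library and 1.99 in its highest root library (11.5 times), and CSA036589.1, at 16.8 and 1.304 FPKM (12.9 times). Among transcripts that met the other limits, just outside were CSA015733.1, at 61.0 and 6.62 FPKM (9.22 times), and CSA025404.1, at 26.9 and 2.94 FPKM (9.14 times). At the limit of 10 FPKM the members just inside were CSA017113.1 at 10.2 and CSA008028.1 at 10.3, both in leaf 41, and the transcripts just outside were CSA012917.1 at 8.24 and CSA033626.1 at 8.04. At the 5-fold limit CSA021517.1 (4.21 times higher in flower) and CSA010664.1 (3.93 times higher in leaf) were the nearest inside. CSA025224.1 and CSA029944.1, at 5.73 and 6.21 times higher in leaf, were the nearest outside. The 16 transcripts beyond that limit leaned to leaf: 15 were higher in leaf and 1 in flower. Of the 24 members, 13 had the higher mean in flower and 11 in leaf.

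Within the 5-fold limit, flower exceeded leaf by more than 2-fold in 7 members, leaf exceeded flower by more than 2-fold in 4, and 13 lay within 2-fold. Flower lay above leaf without overlap in 7 members (29.2%), and leaf above flower in 2 (8.33%). Over all 55806 transcripts tested, flower lay above leaf without overlap at 23.9% and leaf above flower at 22.3%. Among the 1670 reference transcripts at 10 FPKM in all flower and leaf libraries it was 35.5% and 18.5%. With limma on log2(FPKM + 1), 8 members were called between flower and leaf, where 31.3% of all transcripts were. Of the 8, 6 were higher in flower and 2 lower, at a Benjamini-Hochberg adjusted p under 0.05 over all transcripts and a difference of at least 1. Of all transcripts, 17.3% were called higher in flower and 14.0% lower. The rule bounds this contrast, so nothing is read from these counts. When the libraries' FPKM were brought to equal sums, the balance turned, with 1 member called higher and 4 lower in flower. With median ratio scaling it did not, with 7 higher and 2 lower. Without leaf 41 it was 1 higher and 6 lower, and without flower 2 it was 7 higher and 1 lower.

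**Figure D3:**
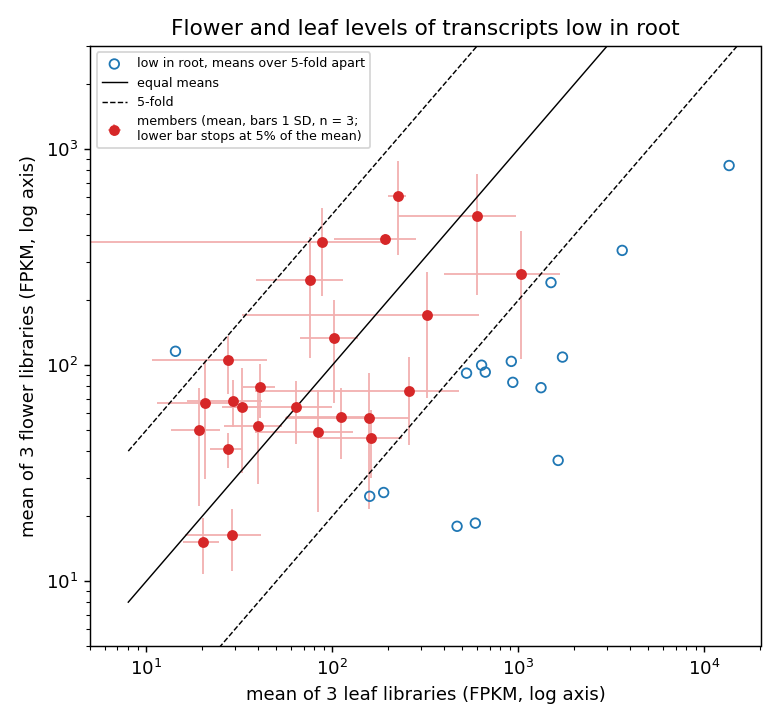
Mean of the flower libraries against mean of the leaf libraries, both in FPKM on log axes, for the 24 members (filled, bars 1 SD, n = 3, lower bars stopped at 5% of the mean) and the 16 transcripts low in root with means over 5-fold apart (open). The members lie between the dashed 5-fold lines, and 15 of the 16 open points lie on the leaf side.

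The strongest lean to flower was at CSA021517.1 (MSTRG.54459, positions 353 to 6391, plus strand). It stood at 479, 184 and 447 FPKM in flower, and at 216, 33.5 and 14.2 in leaf. In root it was at most 0.197 FPKM. Its leaf values spread over more than a 10-fold range and overlapped flower through leaf 1, with a mean of 87.9 ± 111 FPKM in leaf (SD, n = 3). CSA017113.1 (MSTRG.47188, positions 34682 to 45655, minus strand) stood at 141, 81.3 and 92.5 FPKM in flower, and at 28.5, 43.8 and 10.2 in leaf. Here flower and leaf did not overlap, and root was at most 0.209 FPKM. Leaf 41 was the lowest leaf library in both of these members.

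The strongest lean to leaf was at CSA010664.1, described above, and at CSA026252.1 (MSTRG.38976, positions 60381 to 67161, plus strand). CSA026252.1 stood at 205, 204 and 74.5 FPKM in leaf, at 56.8, 27.6 and 53.5 in flower, and at 0.410, 0.152 and 0.477 in root. These 2 members were the ones whose leaf values all lay above their flower values. At the other end, CSA017945.1 (MSTRG.36569) had flower and leaf means of 63.7 ± 20.5 and 63.7 ± 35.5 FPKM (SD, n = 3).

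Members with an even level across the 6 shoot libraries were few. In CSA029800.1 (MSTRG.177, positions 1429200 to 1433168, plus strand) the highest shoot value was 2.04 times the lowest, with 43.6, 46.6 and 32.3 FPKM in flower, 22.8, 25.8 and 33.4 in leaf, and 1.99, 1.01 and 1.49 in root. In CSA026189.1 (MSTRG.42828, positions 25803 to 36365, minus strand) it was 2.18 times, with 15.8, 10.5 and 19.3 FPKM in flower, 22.8, 22.5 and 15.1 in leaf, and 0.581, 0.773 and 0.380 in root. The median of this ratio over the members was 5.05, and over the 1670 reference transcripts at 10 FPKM in all shoot libraries it was 3.44. The median coefficient of variation of the members was 44.98% among flower libraries and 46.5% among leaf libraries, where the 1670 transcripts had 22.99% and 29.3%.

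Leaf 41 and flower 2, the libraries that stood apart, were low in most members. Leaf 41 was the lowest leaf library in 21 of the 24 members (87.5%), and in 55.6% of the 1670 transcripts. The median ratio of leaf 41 to the mean of the other leaf libraries was 0.386 in the members and 0.812 in the 1670. Flower 2 was the lowest flower library in 17 members (70.8%), and in 53.1% of the 1670, with median ratios to the other flower libraries of 0.460 and 0.854. In 16 members both held. The rule reads the smallest shoot value, so these are descriptions, and whether leaf 41 and flower 2 differ in stage, position or tissue make-up was not tested.

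The lowest leaf 41 values against the rest of the organ were at CSA036853.1 (MSTRG.17592, positions 395235 to 396273, minus strand), which stood at 450, 309 and 17.7 FPKM in leaf. Its flower values were 105, 39.5 and 83.4 FPKM and its root values 0.265, 0.254 and 0.285. CSA018493.1 (MSTRG.2192, positions 1246517 to 1248985, plus strand) was close behind, at 340, 601 and 24.1 FPKM in leaf. In both, leaf 41 lay below every flower library while the other leaf libraries lay above every flower library. CSA018493.1 stood at 276, 77.6 and 158 FPKM in flower, and at 0.238, 0 and 0.256 in root. The lowest flower 2 values against the rest were at CSA036589.1 (MSTRG.37196, positions 98873 to 102206, minus strand), at 83.4, 16.8 and 69.9 FPKM in flower, and at CSA010664.1. CSA036589.1 was also low in leaf 41, at 42.3 FPKM against 234 and 193, and stood at 1.304, 1.04 and 0.964 in root.

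The exceptions, chosen after their values were seen, went the other way in flower 2. In 5 members flower 2 was the highest flower library: CSA020922.1, CSA002678.1, CSA033570.1, CSA018832.1 and CSA029800.1. CSA033570.1 had the largest such excess, at 50.2, 102 and 40.99 FPKM in flower, with 39.3, 33.9 and 25.2 in leaf and 1.37, 0.444 and 0.365 in root. CSA018832.1 (MSTRG.33327) was high in both libraries, at 29.3, 77.2 and 50.3 FPKM in flower and 37.5, 27.4 and 54.9 in leaf, and low in root at 0.928, 0.568 and 0.782. With CSA029800.1 it was 1 of 2 members in which neither flower 2 nor leaf 41 was the lowest of its organ.

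**Figure D4:**
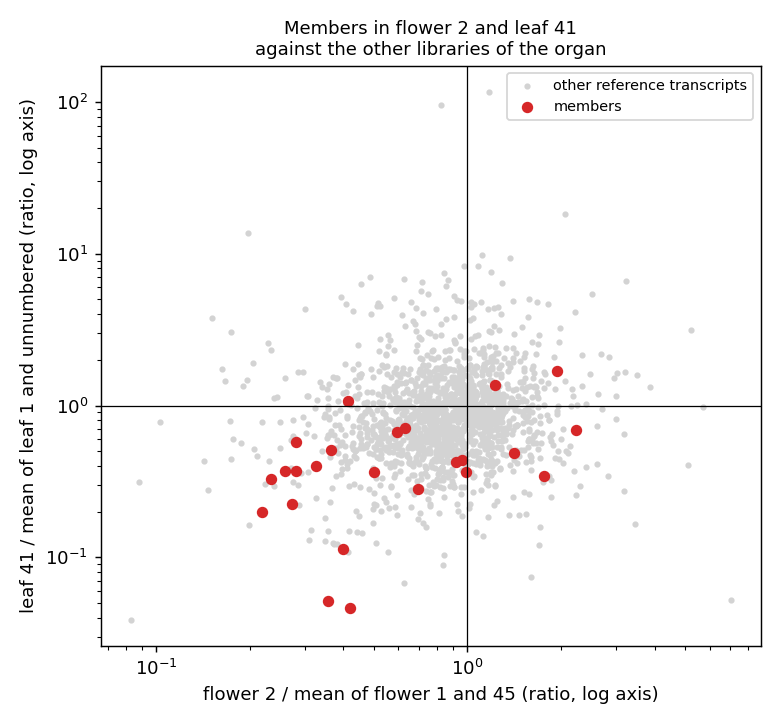
Ratio of leaf 41 to the mean of the other leaf libraries against the ratio of flower 2 to the mean of the other flower libraries, both on log axes, for the members (filled) and the other reference transcripts at 10 FPKM or more in all shoot libraries (grey). Leaf 41 was the lowest leaf library in 21 of 24 members and flower 2 the lowest flower library in 17, and 5 members lie where flower 2 was the highest.

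Leaf 41 also set how many transcripts met the rule. Without it 58 did, of which 23 were members and 35 were added. In 25 of the 35, leaf 41 was under 10 FPKM. The added transcripts had a median of 6.53 FPKM in leaf 41 and 41.5 in the mean of the other leaf libraries, with a median of 1.37 in their highest root library. The member lost was CSA010664.1, whose leaf mean then exceeded its flower mean by more than the limit. Without flower 2, 37 transcripts met the rule, and without both libraries 90 did, including all 24 members.

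Of the remaining members, CSA000421.1 (MSTRG.34499) leaned to flower, at 331, 85.5 and 330 FPKM against 82.8, 110 and 35.8 in leaf, and was listed at 0 in root 23. CSA006194.1 (MSTRG.3895) stood at 101, 56.7 and 79.2 FPKM in flower and 42.9, 47.8 and 32.2 in leaf, with flower above leaf and at most 0.221 in root. CSA008028.1 (MSTRG.33253) likewise had flower above leaf, at 102, 28.1 and 70.2 FPKM against 27.7, 23.8 and 10.3, and was listed at 0 in root 23 and root 33. In each of these 3 members flower 2 and leaf 41 were the lowest of their organs. CSA020922.1 (MSTRG.42996) leaned to leaf, at 131, 155 and 49.0 FPKM against 41.5, 80.7 and 50.02 in flower, with at most 0.339 in root. CSA036354.1 (MSTRG.32355) stood at 81.6, 130 and 39.3 FPKM in leaf and 72.9, 18.1 and 55.5 in flower, with at most 0.947 in root. CSA013727.1 (MSTRG.24878) was among the least abundant, at 30.5, 40.3 and 15.5 FPKM in leaf and 21.8, 16.0 and 11.4 in flower, and its root values of 0.681, 0.0434 and 0.0366 rested mostly on root 13.

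No 2 members had consecutive locus numbers (0 pairs), and the smallest difference between their locus numbers was 74; how many lay on the same scaffold was not determined. They lay on the plus strand in 13 cases and on the minus strand in 11. Their genomic span ran from 444 to 10974 nt with a median of 3408, where the median of the 1670 transcripts was 3892. In 17 members (70.8%) the locus held no other transcript, against 59.6% of the 1670.

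The other 7 member loci held 24 further transcripts, which the rule did not read. Of these, 16 passed the filter of 1 FPKM in 3 libraries, and 11 of the 16 were called lower in root than in flower and in leaf by limma (adjusted p under 0.05 in both contrasts), where 4.80% of such transcripts were called over all loci with 1 reference transcript. None was called higher in root than in both by limma (0 of 16, against 11.0%), and 0 met the same difference at an unadjusted p under 0.05 in both contrasts. All of the 16 but MSTRG.32463.1, described below, were under 1 FPKM in every root library and so passed the filter through flower and leaf. That favours a call of lower in root and all but bars a call of higher in root. Both counts are therefore given as descriptions, and nothing is read from the absence of calls higher in root. With no filter on low values 10 of the 24 were called lower in root. The median difference over the 16 between shoot organs and root was 2.38 on the log2(FPKM + 1) scale, and 0.12 over the transcripts of that background. Fragments that fit several transcripts of a locus are divided among them, so these values are not independent of the members' own. MSTRG.33327, the locus of CSA018832.1, gave 8 of the 11 calls; without it 3 of 5 were called.

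In MSTRG.33327 the largest difference was at MSTRG.33327.6, which contains the reference transcript (positions 72801 to 84903). It stood at 30.4, 65.2 and 26.4 FPKM in flower and 11.0, 6.96 and 13.1 in leaf. In root it stood at 0.417 FPKM in root 13 and near 0 in the others. The shoot organs exceeded root by 4.20 ± 0.34 (SE) on the log2(FPKM + 1) scale. Flower 2 was its highest library, as it was for the reference transcript of this locus. MSTRG.51453.1, a splice variant beside CSA033570.1, stood at 25.8, 23.4 and 21.3 FPKM in flower, 17.3, 17.9 and 6.77 in leaf, and 0.356, 0.151 and 0.0640 in root. Its difference was 3.96 ± 0.32 (SE). Both transcripts passed the filter through flower and leaf and share their locus with a member, so their differences are given as descriptions.

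A single tested transcript of these loci had its highest organ mean in root, and it was picked out after its values were seen. MSTRG.32463.1, a splice variant beside the member CSA012082.1, stood at 7.19, 12.2 and 12.0 FPKM in root, at 3.67, 0.00163 and 8.58 in flower, and at 1.46, 0.00355 and 0.592 in leaf. CSA012082.1 itself stood at 0.0701, 0.0889 and 0.0740 FPKM in root, at 60.4, 18.6 and 71.7 in flower, and at 23.7, 21.3 and 12.9 in leaf. The reference transcript and its variant were thus ordered oppositely between root and shoot within 1 locus. For the variant, leaf minus root was -2.83 ± 0.74 (SE; limma adjusted p = 0.0164), and flower minus root was -1.66 ± 0.74, which did not pass (limma adjusted p = 0.0986). When all transcripts of a locus were summed, CSA012082.1 was the member that no longer met the rule.

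Neighbouring loci were compared next, taken as the loci numbered 1 below or above a member locus. There were 48, of which 32 kept the order of positions expected on 1 scaffold and 7 also held a consecutive reference number, so many cannot be shown to lie beside the member. Of the 30 that passed the filter, 1 was called lower in root than in flower and in leaf (3.33%), where 5.84% of all 36342 loci tested were called. The count called higher in root than in both was 3, against 13.5% of all loci. Outside root, these 3 reached 1 FPKM only at MSTRG.3894 in leaf 41, so they passed the filter through root. That favours such a call, and their count is given as a description. The median difference between shoot organs and root was 0.29, and 0.08 over all loci.

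The neighbour lower in root was MSTRG.44606 (reference transcript CSA027565.1, positions 21802 to 25113, plus strand), next to CSA027566.1 by locus and by reference number. Its locus sum stood at 465, 198 and 385 FPKM in flower, 235, 399 and 46.8 in leaf, and 26.6, 29.8 and 30.8 in root. The shoot organs exceeded root by 2.96 ± 0.60 (SE), with limma adjusted p of 0.00266 for flower and 0.019 for leaf. The call was lost without any 1 root library, without leaf 1 and without the unnumbered leaf library, where the larger adjusted p of the 2 contrasts was 0.0519 to 0.0694 (limma). Of the neighbours higher in root, MSTRG.33254 stood at 23.5, 18.6 and 11.6 FPKM in root and at most 0.225 elsewhere. The difference was -4.04 ± 0.25 (SE), given as a description because this locus passed the filter through root alone. Its position does not keep the order expected beside CSA008028.1. MSTRG.3894 stood at 3.15, 7.61 and 10.3 FPKM in root, at 0.839, 0.0586 and 0.330 in flower, and at 0.342, 0.428 and 3.85 in leaf. The difference was -2.12 ± 0.49 (SE), also given as a description. Outside root this locus reached 1 FPKM only in leaf 41, so it too passed the filter through root. Root 13 and leaf 41 lay close together there, and the call was lost without root 23, root 33, leaf 1 or the unnumbered leaf library, with a larger adjusted p of 0.0928 to 0.111 (limma). It was also lost with a pseudocount of 0.1 and with no filter on low values, at 0.0571 and 0.0506 (limma adjusted p). With a pseudocount of 5 the mean difference was -0.99, under the limit for a call.

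**Figure D5:**
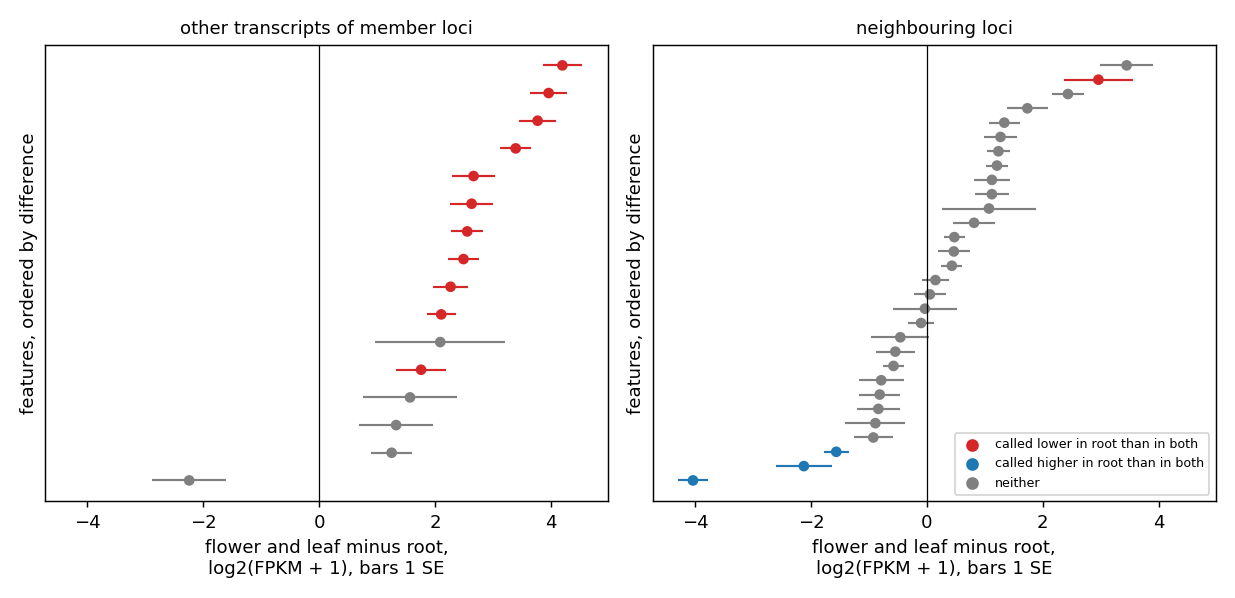
Difference between shoot organs and root on the log2(FPKM + 1) scale, with bars of 1 SE, for the 16 tested other transcripts of member loci (left) and the 30 tested neighbouring loci (right), each ordered by its difference. Of the other transcripts 11 were called lower in root than in flower and in leaf, and of the neighbours 1.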

How the data were processed

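The authors deposited 1 table of FPKM values with 1 row for each assembled transcript and 1 column for each library. The libraries hold TRIzol-extracted total RNA depleted of ribosomal RNA, per the labels' protocols. Per the submitters' processing notes, HISAT2, StringTie and Cuffnorm were used; their versions and settings, the use of strand and the build were not stated in those sources. The unit was taken from Cuffnorm and from the values. Of the 9 columns, 8 carry a sample title. The number of sample columns left out was 0.

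The members and all lists were chosen with earlier results of these data known. Transcripts, or locus sums for neighbours, with at least 1 FPKM in at least 3 libraries were tested with limma (version 3.58.1 in R 4.3.3) after a log2(FPKM + 1) transform, fitting a variance trend and one common spread with 6 residual degrees of freedom. A feature was called at a Benjamini-Hochberg adjusted p under 0.05 and a difference of at least 1. This scale understates changes of low values. Since separate plants are not stated, p-values reflect the spread among these libraries alone and may be technical. No pair of libraries shared more than 0.00132% of values above 0, so none was counted as deposited again. Depth came from transcripts without strand in loci of 1 transcript, where 100% of values between 1.5 and 10 fragments lay within 0.05 of a whole number. On simulated data with 48603 rows, the flower minus leaf test recovered 95% of changes of 1.5 and 100% of changes of 3 (log2). It also called 13 unchanged rows. The simulation gave every row the same fixed spread and placed changes only in rows of higher level. The members' own SE for this contrast had a median of 0.44, so these shares need not hold for them. Members described first are those with the highest levels, widest gaps, strongest leans, flattest levels, lowest leaf 41 and flower 2 ratios, or values nearest a limit; the others are named so that every member is accounted for. Other features named have the largest differences among those called, except MSTRG.32463.1, which was chosen after its values were seen.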

Additional observations from a re-analysis of the deposited data

How the results depend on the processing

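The number of transcripts meeting the rule was 44 with root at most 1/5 in place of 1/10 of the smallest shoot value, 37 with a minimum of 5 FPKM, 14 with 20 FPKM, 13 with flower and leaf within 2-fold, 40 with no such limit and 44 with the transcripts of a locus summed (23 of them members). With 1 library left out it was 24 to 58, and without flower 2 and leaf 41 together, a setting chosen after seeing the data, 90. Scaling to an equal sum of FPKM gave 25, of which 20 were members.

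Calls between flower and leaf among the members were 5 with a pseudocount of 0.1 (3 higher in flower), 3 with no filter on low values (2 higher, 1 lower), 5 with equal sums (1 higher, 4 lower) and 3 with a difference of at least 2 (2 higher, 1 lower). Array weights gave 6 higher and 6 lower. With 1 library left out there were 3 to 8 calls, 1 to 7 higher and 0 to 6 lower. Without flower 2 and leaf 41 together 6 were higher and 5 lower. The 11 other transcripts called lower in root became 4 with a pseudocount of 5, 7 with a filter of 5 FPKM, 3 among splice variants coded j alone and 3 without the locus MSTRG.33327, and 9 to 11 with 1 library left out. The single neighbour called became 2 with a pseudocount of 0.1, 2 without flower 2 and leaf 41 together, and 0 to 2 with 1 library left out. The filters and subsets test fewer features by construction; otherwise the cause was not tested. Named tested features kept their direction in all 81 values, and at 11 the larger adjusted p was no longer under 0.05 (limma). That count leaves out the limit on the difference, which MSTRG.3894 missed with a pseudocount of 5 at a mean difference of -0.99. The 81 hold no value for MSTRG.33254 without a root library or for MSTRG.3894 with the filter of 5 FPKM, where they were not tested.

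No paired analysis was possible because no 2 organs share more than 1 column number. Flower and leaf share 1, root and leaf share 23, which no leaf title has, and root and flower share none. By title, flower and leaf share 1 and 2, but no column has the name leaf 2. Depth limits the root values: 12 of the 24 members were at or under the level of 3 fragments in at least 1 root library.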

Other observations

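The same thresholds, applied after the members were known to transcripts of other class codes, were met by 18 of 1649 splice variants (1.09%) and by 12 of 517 intergenic transcripts (2.32%) that reached 10 FPKM in all flower and leaf libraries. Among antisense transcripts it was 0 of 39. With reference transcripts of all loci counted, including loci that join several reference transcripts, 31 of 1862 met them.

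With the organs exchanged, 24 reference transcripts were high in root and flower and low in leaf, and 5 were high in root and leaf and low in flower. Of the reference transcripts at 10 FPKM in all libraries of both other organs, 2.40% were low in root (40 of 1670), 1.63% low in leaf (30 of 1839) and 0.348% low in flower (6 of 1722), before the 5-fold limit. These counts share libraries and were not tested against each other.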
